A study of Mus musculus with 74 samples.

Results

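Prdm14, Prdm1, Tfap2c and Nanos3 were followed in RNA-seq of mouse ES cells, to ask whether Nanog raises the factors that specify the germ line in the presence and in the absence of LIF. The 4 genes were chosen by name, out of 37620 genes in the deposited tables, and all 4 were present in each of 35 libraries. All cells derive from the E14Tg2a ES cell line and grew in serum. SunTag cells carry a Dox-inducible CRISPR activator, a dCas9 that recruits many VP64 activation domains, and a guide RNA that brings it to a promoter. Nanog SunTag cells carry a guide for Nanog, and Nanog/Otx2 SunTag cells carry a guide for Nanog and one for Otx2. Both came from the same SunTag clones, C1 and C2, so each line rests on 1 clone of each origin (called C1ON3 and C2ON3 in the Nanog/Otx2 cells). They were grown for 3 days with or without LIF and with or without Dox. In the order LIF alone, LIF and Dox, neither, and Dox alone, there were 3, 2, 3 and 3 libraries of Nanog SunTag cells and 3, 4, 4 and 4 of Nanog/Otx2 SunTag cells. 44iN cells lack endogenous Nanog and express a Nanog transgene under Dox. They were sequenced in LIF with Dox (2 libraries), 24 h after removal of Dox that had been given for at least 3 passages (2 libraries), and after long-term culture without Dox under G418 selection (2 libraries). Tg2a cells, wild type for Nanog and kept in the same medium with LIF, gave 3 libraries.

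Primordial germ cells, the precursors of sperm and eggs, are set aside in the epiblast when BMP and WNT signals act on it. Prdm1 (also called Blimp1), Prdm14 and Tfap2c (AP-2γ) are transcription factors that together silence the somatic programme and switch on germ-cell genes, and Nanos3 is an RNA-binding protein needed for the survival of the cells that form. ES cells already use a part of this set, since Prdm14 restrains FGF signalling and DNA methylation in naive pluripotency and Tfap2c is expressed in naive cells and in trophoblast, whereas Prdm1 is also known from endoderm and from lymphocytes.

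The guides that set Nanog and Otx2 levels in these cells are shown because every SunTag comparison turns on them. Each is written 5′ to 3′ in lower case with the adjoining PAM, read from the mm9 genome, in capitals.
Nanog guide: cttcccactagagatcgccaGGG
Otx2 guide: aatgtagagcgtgcatttggAGG
The Nanog guide matched the genome at 1 place, chr6:122657269-122657288 on the plus strand of mm9, outside the annotated gene and 219 bases upstream of the start of Nanog. Its oligo carries 1 additional G at the 5′ end. The Otx2 guide matched at 1 place, chr14:49282649-49282668 on the minus strand, 102 bases upstream of the start of the transcript Otx2-003 and within an intron of the annotated gene. None of the 4 germ-cell factors lies near these sites on the genome: Prdm14 is at chr1:13103538-13117244, Prdm1 at chr10:44156983-44248307, Tfap2c (annotated as Tcfap2c) at chr2:172375093-172384122 and Nanos3 at chr8:86697632-86700451.

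Nanog followed its labels. Normalised counts (estimated counts divided by a size factor for each library) of Nanog were 21941 to 29487 in Nanog SunTag cells with LIF alone, 75226 to 93813 with LIF and Dox, 2234 to 8484 with neither and 45041 to 55641 with Dox alone. In Nanog/Otx2 SunTag cells the same 4 conditions gave 18320 to 20533, 40628 to 48558, 1974 to 6867 and 31697 to 48471. 44iN cells had 13366 and 18394 with Dox, 706 and 739 after 24 h without it and 228 and 276 in the long term. Otx2 rose upon Dox in Nanog/Otx2 SunTag cells with LIF, from 736 to 1062 without Dox to 3214 to 3806 with it, and fell in Nanog SunTag cells, from 704 to 908 to 166 and 308. The libraries held 6107512 to 92244655 counts (median 29298745), and the shallowest is 1 of the 3 Nanog/Otx2 libraries with LIF alone (C2ON3-1). Tests below are edgeR's quasi-likelihood tests over all genes with an adequate count, and a gene was called when its Benjamini-Hochberg adjusted p was under 0.05. The labels do not say whether replicates of a clone were separate cultures, and p-values measure the spread between these libraries only. Where groups are said not to overlap, this describes the few libraries in each group and is no test. Bulk RNA cannot tell fewer cells with a transcript from less of it per cell.

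Withdrawal of LIF lowered Prdm14, Tfap2c and Prdm1 in Nanog SunTag cells. Prdm14 fell 20.8-fold (95% interval 11.6 to 37.3), Tfap2c 8.83-fold (5.79 to 13.5) and Prdm1 3.48-fold (2.03 to 5.96). Prdm14 had 755, 910.4 and 945 normalised counts with LIF and 25.2, 33.2 and 71.1 without, a mean of 870.4 ± 101 (SD, n = 3) against 43.2 ± 24.5 (SD, n = 3). The lowest library with LIF stood over 10 times above the highest without. Its log2 fold change was -4.38 (standard error 0.38, edgeR adjusted p = 9.59e-06).

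Tfap2c had 1095, 1382 and 1723 normalised counts with LIF and 118, 141 and 224 without. The groups lay far apart, and Tfap2c fell by 3.14 on the log2 scale (standard error 0.28, edgeR adjusted p = 1.01e-05). Prdm1 had 382, 447 and 769 with LIF and 143, 159 and 164 without. Here too no library of one group reached the other, but the spread with LIF was wide, the highest value being that of the C1 library, and Prdm1 fell by 1.80 on the log2 scale (standard error 0.36, edgeR adjusted p = 0.00211). The 3 genes tested were all called lower, in a comparison that called 41.5% of 15624 genes and 21.3% of them as lower. Nanos3 did not reach the count needed for the test in Nanog SunTag cells.

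**Figure D1:**
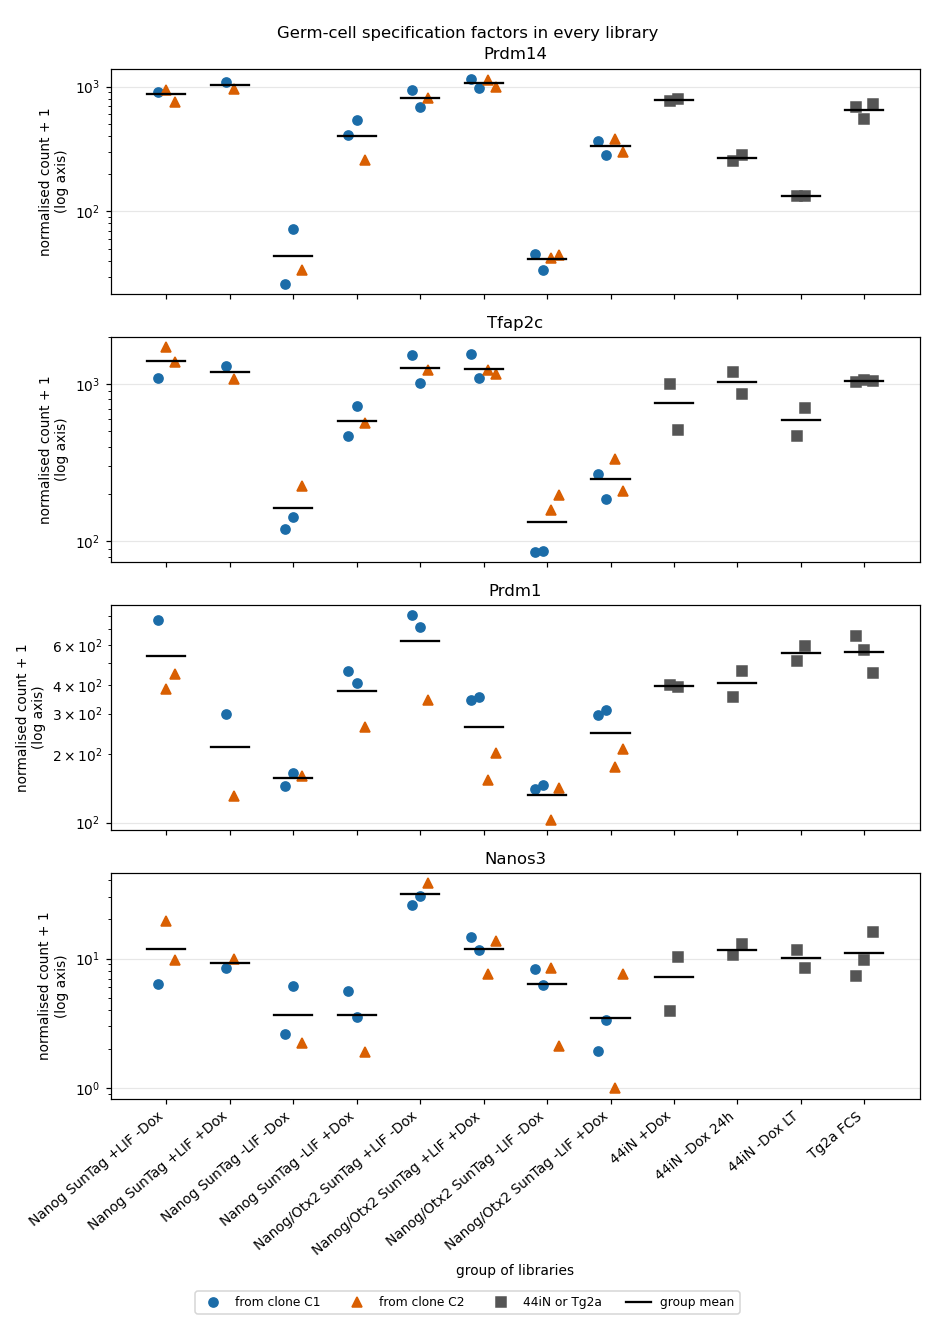
Normalised counts + 1 on a log axis (vertical) of the 4 factors in each of the 35 libraries, in 12 groups (horizontal), with points coloured by clone of origin and a bar at each group mean. Prdm14 in the 3 Nanog SunTag libraries with Dox alone (257 to 544) sits between those with neither (25.2 to 71.1) and those with LIF (755 to 945), and Nanos3 stays at 37.0 or less throughout.

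Without LIF, induction of Nanog raised Prdm14 and Tfap2c. Prdm14 was 9.69-fold higher with Dox (95% interval 5.53 to 17.0) and Tfap2c 3.71-fold higher (2.48 to 5.56). Prdm14 reached 257, 407 and 544 normalised counts with Dox, against the 25.2 to 71.1 without it. All induced libraries lay above all uninduced ones, the lowest being that of clone C2. The log2 fold change was 3.28 (standard error 0.37, edgeR adjusted p = 0.000555).

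Tfap2c reached 465, 562 and 726 normalised counts with Dox alone. The groups did not overlap, and Tfap2c rose by 1.89 on the log2 scale (standard error 0.27, edgeR adjusted p = 0.00207). For Prdm1, which had 260.2, 405 and 457 with Dox alone, the log2 fold change was 1.30, with a standard error of 0.35, and the gene was not called (edgeR adjusted p = 0.0552), although its groups did not overlap. With the clone as a block in the fit it was called, at 1.24 (edgeR adjusted p = 0.00827), and likewise with DESeq2, at 1.28 (adjusted p = 0.00643). The comparison called 5.14% of 15624 genes, 3.60% as higher, against 8.80% (1375 genes, up from 803) with the block and 9.66% with DESeq2. Prdm1 was also called without the Nanog SunTag library C1-1 with LIF alone (adjusted p = 0.0194), C1-1 with LIF and Dox (0.0305), C2-1 with LIF and Dox (0.0332) or C2-2 with Dox alone (0.0415). Among the 11 fits that each left out 1 library, the log2 fold change of Prdm14 lay between 3.00 and 3.83 and that of Tfap2c between 1.72 and 2.22, and both were called in each.

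With LIF present, no rise upon Dox was called for any of the 3 genes tested. Prdm14 had 965 and 1097 normalised counts with LIF and Dox, above the 755 to 945 with LIF alone. This was a log2 fold change of 0.23 (95% interval -0.55 to 1.01, edgeR adjusted p = 0.805). Nanog itself, at a log2 fold change of 1.74, was not called in this comparison either (edgeR adjusted p = 0.0793). Tfap2c had 1084 and 1313, inside the range of the uninduced libraries, and its log2 fold change was -0.24 (95% interval -0.86 to 0.38, edgeR adjusted p = 0.734). These intervals leave room for changes of up to about 2.01-fold in Prdm14 and 1.82-fold in Tfap2c.

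Prdm1 lay lower with LIF and Dox, at 130.1 and 298 normalised counts against 382 to 769 with LIF alone. The groups did not overlap. The log2 fold change was -1.35, with a standard error of 0.41, and was not called (edgeR adjusted p = 0.162). The clones differ in Prdm1, and with the clone as a block the fold change was -1.48 and was called (edgeR adjusted p = 0.0265), as it was with DESeq2 (-1.33, adjusted p = 0.0321). Of the 3 genes edgeR thus called 0, with 1 at an unadjusted p under 0.05. The comparison called 0.563% of 15624 genes (88), 1.88% (293) with the block and 3.76% with DESeq2.

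The responses to Dox with and without LIF differed for all 3 genes in a direct test. The difference of the log2 fold changes was 3.05 for Prdm14 (standard error 0.52, edgeR adjusted p = 0.0158), 2.13 for Tfap2c (standard error 0.39, edgeR adjusted p = 0.0222) and 2.65 for Prdm1 (standard error 0.54, edgeR adjusted p = 0.0315). For Prdm1 the responses pointed in opposite directions. Nanog itself changed upon Dox by 1.74 with LIF and 3.16 without, a difference of 1.42 that was not called (edgeR adjusted p = 0.237). The factors were thus not compared at an equal induction of Nanog. The test called 1.93% of 15624 genes (302, and 709 with the clone as a block). All 3 differences were called with the block, but each lost its call in some of the 11 fits that left out 1 library.

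For Prdm14 these were the fits without C1-1 with LIF and Dox (adjusted p = 0.0672), C2-1 with LIF and Dox (0.0608) or C1-1 with Dox alone (0.0506). For Tfap2c they were those without C1-1 (0.0733) or C2-1 (0.0755) with LIF and Dox, C2-1 with LIF alone (0.0503), C1-1 (0.0653) or C1-2 (0.0599) with neither, or C1-1b with Dox alone (0.0576). For Prdm1 they were those without C2-1 with LIF and Dox (0.0841), C1-1 (0.0937), C1-2 (0.0687) or C2-1 (0.0588) with neither, or C1-1 (0.0883) or C1-1b (0.0759) with Dox alone. The size of the difference held in these fits, at 2.75 to 3.59 for Prdm14, 1.95 to 2.44 for Tfap2c and 2.19 to 3.33 for Prdm1. Leaving out a library with LIF and Dox leaves 1 in that group, which is then assumed to vary like the others.

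**Figure D2:**
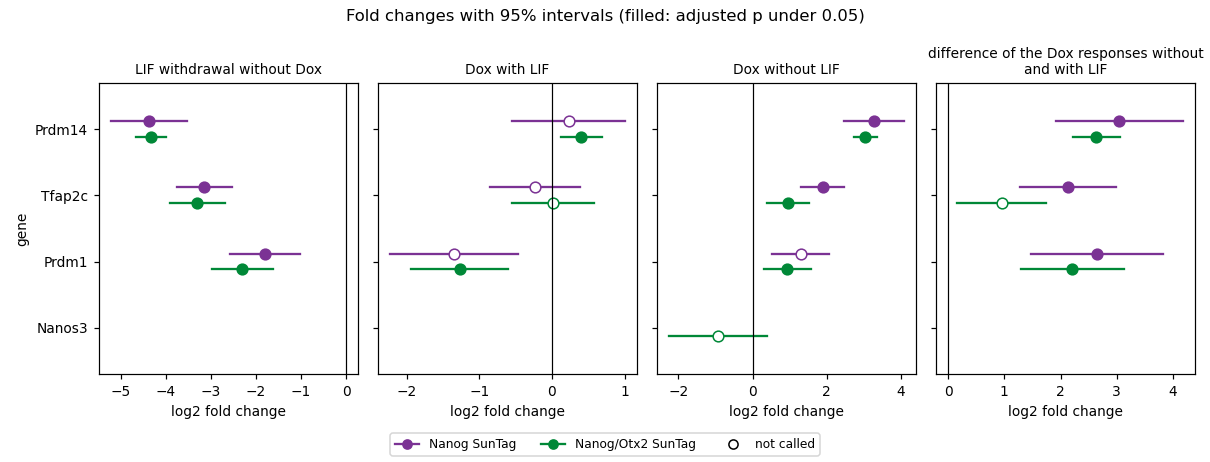
Log2 fold changes (horizontal) of the 4 factors (vertical) in 4 comparisons, with 95% intervals, in Nanog SunTag cells (purple) and Nanog/Otx2 SunTag cells (green), with filled points for an adjusted p under 0.05 and Nanos3 only for Dox without LIF in the latter. Prdm14 falls by 4.38 and 4.33 upon withdrawal of LIF and rises by 3.28 and 3.04 upon Dox without LIF, while its changes upon Dox with LIF are 0.23 and 0.41.

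With Nanog in place of LIF the factors were held at a part of their level. Set against cells with LIF alone, cells with Dox alone kept 46.2% of the mean Prdm14 level, where uninduced cells kept 4.96%. For Tfap2c the shares were 41.7% and 11.5%, and for Prdm1 70.3% and 29.2%. Prdm14 stayed 2.15-fold below the level with LIF (95% interval 1.31 to 3.52, edgeR adjusted p = 0.0265) and Tfap2c 2.38-fold (1.61 to 3.51, edgeR adjusted p = 0.00474). Prdm1 was 1.41-fold lower, with an interval that spans no change (0.840 to 2.37, edgeR adjusted p = 0.298), although with the clone as a block it was called (-0.70 on the log2 scale, edgeR adjusted p = 0.0437).

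This comparison called 28.1% of 15624 genes, and 32.3% with the block. The call of Prdm14 was lost without C2-1 with LIF alone (log2 fold change -1.05, adjusted p = 0.0729), C1-1 with Dox alone (-1.08, 0.0805) or C2-2 with Dox alone (-0.84, 0.0948). It shares its libraries with the comparisons above and is not independent of them.

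In Nanog/Otx2 SunTag cells, in which Dox raised Otx2 along with Nanog, Prdm14 behaved much as in Nanog SunTag cells. It had 689, 805 and 934 normalised counts with LIF alone, and 974, 986, 1127 and 1155 with LIF and Dox. Without LIF it had 33.0, 41.6, 43.4 and 44.5 uninduced and 285, 297, 365 and 379 with Dox. The 4 conditions did not overlap. Prdm14 fell by 4.33 on the log2 scale upon withdrawal of LIF (standard error 0.15, edgeR adjusted p = 1.19e-10) and rose by 3.04 upon Dox without LIF (standard error 0.15, edgeR adjusted p = 1.10e-08), which brought it to 40.9% of the level with LIF.

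With LIF, Prdm14 rose 1.33-fold upon Dox (95% interval 1.09 to 1.62, edgeR adjusted p = 0.0422). This small call was lost with no filter on low counts (adjusted p = 0.0556) and without C1ON3-2 (0.196) or C2ON3-1 (0.0720) with LIF alone, C1ON3-1 (0.104), C2ON3-1 (0.103) or C2ON3-2 (0.0579) with LIF and Dox, or C2ON3-1 with neither (0.0500). The difference between the responses without and with LIF was 2.63 on the log2 scale (standard error 0.19, edgeR adjusted p = 3.77e-06). For Nanog itself this difference was 2.00 (edgeR adjusted p = 0.0104).

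Tfap2c had 1018, 1231 and 1524 normalised counts with LIF alone and 1091, 1160, 1223 and 1546 with LIF and Dox. Without LIF it had 84.6, 85.9, 158 and 197 uninduced and 184, 208, 265 and 335 with Dox. The ranges with LIF coincided, and those without LIF overlapped, so that the lowest induced library lay below the highest uninduced one. Tfap2c fell by 3.31 on the log2 scale upon withdrawal of LIF (standard error 0.29, edgeR adjusted p = 2.83e-07), and upon Dox its log2 fold changes were 0.01 with LIF (95% interval -0.55 to 0.58, edgeR adjusted p = 0.980) and 0.96 without (standard error 0.27, edgeR adjusted p = 0.0220). With Dox alone it reached 19.7% of the level with LIF.

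The rise of Tfap2c without LIF was not called when only the groups compared were fitted (adjusted p = 0.0700), or without C1ON3-1 (0.0577) or C1ON3-2 (0.0607) with neither, or C2ON3-1 with Dox alone (0.0664). The difference between its responses was 0.95 on the log2 scale and was not called (edgeR adjusted p = 0.136), except with clone and number as a block (1.02, edgeR adjusted p = 0.0389; 1.03 and 0.0496 with the clone alone) or without C2ON3-2 with neither (1.21, adjusted p = 0.0406).

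Prdm1 again moved in opposite directions with and without LIF. It had 343, 718 and 808 normalised counts with LIF alone, and 153, 201, 343 and 353 with LIF and Dox. Without LIF it had 102, 139.8, 140.2 and 145 uninduced and 174, 209, 293 and 309 with Dox. Between cells with and without Dox, the ranges with LIF overlapped, by the single C2ON3 library with LIF alone, and those without LIF did not. Prdm1 fell 4.94-fold upon withdrawal of LIF (95% interval 3.08 to 7.92, edgeR adjusted p = 3.06e-05) and fell 2.42-fold upon Dox with LIF (1.53 to 3.83, edgeR adjusted p = 0.00926). It rose 1.92-fold upon Dox without LIF (1.23 to 2.99, edgeR adjusted p = 0.0428).

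The difference of the Prdm1 responses was 2.21 on the log2 scale (standard error 0.43, edgeR adjusted p = 0.00472) and was called in all 15 fits that left out 1 library. The fall with LIF lost its call without C1ON3-1 with LIF alone (-1.05, adjusted p = 0.0592). The rise without LIF lost its call with no filter (adjusted p = 0.0535), without C1ON3-2 with LIF alone (0.0536), without C1ON3-1 (0.0653), C1ON3-2 (0.0676), C2ON3-1 (0.120) or C2ON3-2 (0.0716) with neither, and without C1ON3-1 (0.103), C1ON3-2 (0.125) or C2ON3-2 (0.0521) with Dox alone.

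Set against LIF alone, Nanog/Otx2 cells with Dox alone had less Prdm14, Tfap2c and Prdm1. The log2 fold changes were -1.29 for Prdm14 (edgeR adjusted p = 4.09e-06), -2.34 for Tfap2c (edgeR adjusted p = 1.15e-05) and -1.37 for Prdm1 (edgeR adjusted p = 0.00243). Of 15609 genes tested in Nanog/Otx2 cells, withdrawal of LIF called 49.8% (25.2% as lower), Dox with LIF 22.9%, Dox without LIF 17.3% (11.2% as higher), the difference of the responses 9.70%, and Dox alone against LIF alone 45.3% (21.7% as lower). With clone and number as a block the numbers called rose from 3577 to 6401 (41.0%) for Dox with LIF, from 2702 to 5215 for Dox without LIF, and from 1514 to 3407 (21.8%) for the difference.

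Nanos3 was barely expressed. It had 0 to 52 estimated counts per library, and in Nanog SunTag cells group means of 10.8, 8.22, 2.68 and 2.69 normalised counts with LIF alone, LIF and Dox, neither and Dox alone. It passed the count filter only in fits that held Nanog/Otx2 cells, through their group with LIF alone, where it had 24.8, 29.5 and 37.0. The other groups of that line had 6.55 to 13.6 with LIF and Dox, 1.11 to 7.49 with neither and 0 to 6.58 with Dox alone, the 0 being a library (C2ON3-1) with 0 counts, which allows up to 3. Since Nanos3 entered the fit through the group with LIF alone, comparisons with that group are given as levels, with no test. The highest value of that group, 37.0, came from its shallowest library (C2ON3-1 with LIF alone) and rests on 8 estimated counts.

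The log2 fold change of Nanos3 upon Dox without LIF was -0.92 (95% interval -2.25 to 0.40, edgeR adjusted p = 0.340). At these counts no response of Nanos3 to Dox without LIF was detectable.

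Each clone gave the same picture for Prdm14. Its log2 ratio of means upon Dox without LIF was 3.28 in C1 and 2.91 in C2 of the Nanog SunTag cells, and 3.04 and 2.96 in C1ON3 and C2ON3. Upon Dox with LIF the same 4 ratios were 0.27, 0.18, 0.39 and 0.39. For Tfap2c the ratios without LIF were 2.19 and 1.33 in Nanog SunTag cells and 1.39 and 0.61 in Nanog/Otx2 cells, the clones derived from C1 standing higher in both. Prdm1 had ratios of 1.48, 0.71, 1.08 and 0.66 without LIF and of -1.36, -1.66, -1.13 and -0.95 with LIF. Its level with LIF alone was 769, 808 and 718 normalised counts in libraries of C1 origin and 382, 447 and 343 in those of C2 origin, which do not overlap. These ratios rest on 1 or 2 libraries a side and carry no test.

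**Figure D3:**
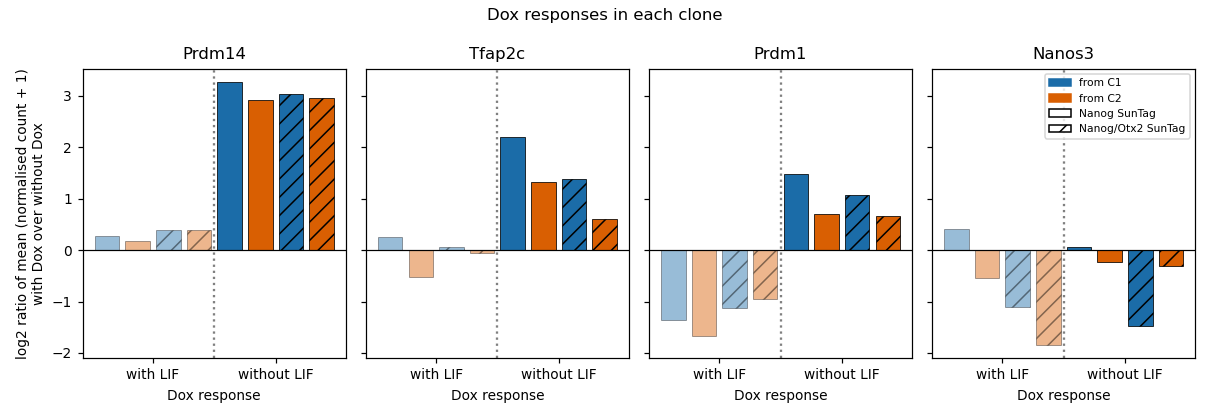
Log2 ratio of mean normalised count + 1 with Dox over without Dox (vertical) for each factor, with LIF (pale bars) and without (full bars), in Nanog SunTag (plain) and Nanog/Otx2 SunTag cells (hatched) of C1 (blue) and C2 (orange) origin. All 4 bars of Prdm14 without LIF lie between 2.91 and 3.28, and all 4 of Prdm1 with LIF lie below 0.

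Without LIF, the main fits called only Tfap2c of the 4 factors between the lines, and only with Dox alone. In that condition Tfap2c was 2.47-fold lower in Nanog/Otx2 than in Nanog SunTag cells (95% interval 1.67 to 3.65, edgeR adjusted p = 0.000681). Prdm14 was 1.27-fold lower (0.920 to 1.76, edgeR adjusted p = 0.226) and Prdm1 1.60-fold lower (0.998 to 2.56, edgeR adjusted p = 0.103), and neither was called. With the clone as a block Prdm1 was called (-0.56 on the log2 scale, edgeR adjusted p = 0.0200), and Prdm14 was called without C2-2 of the Nanog SunTag cells with Dox alone (-0.58, adjusted p = 0.0498). In uninduced cells without LIF, edgeR called 0 of the 4 genes (0 at an unadjusted p under 0.05, and DESeq2 called 0), with log2 differences of -0.06 for Prdm14, -0.33 for Tfap2c, -0.27 for Prdm1 and 1.09 for Nanos3.

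The difference between the Dox responses of the lines was not called for Tfap2c (-0.98, 95% interval -1.80 to -0.15, edgeR adjusted p = 0.824) or for the other 3 genes. Its unadjusted p was under 0.05 for 1 of the 4, and DESeq2 called 0. The lines were sequenced as separate series of libraries, to judge by the column names of the tables. Guide and series cannot be told apart, and the lines already differed in 25.4% of 16210 genes without Dox, against 41.0% with Dox (49.2% with the block) and 0.0308% for the difference of the responses.

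In 44iN cells, which stayed in LIF, the levels of Prdm14 with and without Nanog lay apart, but the difference was called in some of the fits only. Prdm14 had 764 and 802 normalised counts with Dox and 252 and 284 after 24 h without. The lowest library with Dox stood above the highest without, with a 3.12-fold difference of the groups (95% interval 1.93 to 5.05). This was not called by edgeR (adjusted p = 0.256), which called 0 of 14376 genes, Nanog included, though 1023 had an unadjusted p under 0.05. DESeq2 called 141 genes (0.981%), Prdm14 among them (log2 fold change 1.62, adjusted p = 0.00361). edgeR also called Prdm14 with no filter on low counts (adjusted p = 0.00190), in a fit that called more genes in all. Leaving out a library with Dox leaves 1 in that group, which is then assumed to vary like the others. Calls from those fits are therefore not given here.

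Tfap2c had 510.1 and 999 normalised counts with Dox and 867 and 1202 without, a log2 fold change of -0.37 (95% interval -1.27 to 0.54). The value depends on both libraries with Dox, being 0.01 without replicate 2 and -0.92 without replicate 1. Each of these fits left 1 library with Dox. Prdm1 had 390.3 and 398 with Dox and 353 and 458 without, a log2 fold change of 0.05 (-0.72 to 0.83).

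With LIF present in both systems, the response of Prdm14 to Dox measured 0.23 in Nanog SunTag cells and 1.64 in 44iN cells on the log2 scale, over Nanog levels that rose from 24924 to 84519 in the former and from 722 to 15880 in the latter (group means). The joint fit of both systems did not call Prdm14 (edgeR adjusted p = 0.0714; 0.307% of 15642 genes called), whereas DESeq2 did (adjusted p = 1.48e-05). The difference between the responses, a contrast added after the data were seen, was 1.37 (95% interval 0.63 to 2.12) with an unadjusted p of 0.00224. It was not called (edgeR adjusted p = 1.000, and DESeq2 adjusted p = 0.0888) in a test in which edgeR called 0% of genes (514 at an unadjusted p under 0.05) and DESeq2 15 genes.

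Cells that had lost Nanog for the long term had less Prdm14 and Tfap2c than wild-type Tg2a cells. Prdm14 had 132.1 and 132.8 normalised counts against 551, 687 and 719. It was 5.19-fold lower (95% interval 3.64 to 7.39, edgeR adjusted p = 0.00259). Tfap2c had 468 and 705 against 1033, 1045 and 1055, and was 1.88-fold lower (1.36 to 2.61, edgeR adjusted p = 0.0353). Neither gene's groups overlapped.

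Prdm1 had 509 and 592 against 449.7 to 656, a log2 fold change of -0.10 (95% interval -0.61 to 0.41). The comparison called 8.61% of 14937 genes. The call of Prdm14 was lost without long-term replicate 1 (-2.40, adjusted p = 0.0798) or replicate 2 (-2.41, 0.0537), and that of Tfap2c without long-term replicate 1 (-0.66, 0.286), long-term replicate 2 (-1.28, 0.0907) or Tg2a replicate 2 (-0.89, 0.114). The remaining long-term library is then assumed to vary like the Tg2a libraries. 44iN and Tg2a are different lines, and loss of Nanog and line cannot be told apart.

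Over all 12 groups, Prdm14 was highest in SunTag cells with LIF and Dox and lowest in SunTag cells with neither. In descending order its group means were 1060.5 and 1031 (LIF and Dox, Nanog/Otx2 and Nanog), 870.4 and 810 (LIF alone), 783 (44iN with Dox), 652 (Tg2a), 403 and 331 (Dox alone), 268 (44iN after 24 h), 132 (long-term 44iN), and 43.2 and 40.6 (neither). The pairs of SunTag lines in each condition overlapped, as did 44iN with Dox and the group above it. For Tfap2c the highest mean was 1400.1 (Nanog SunTag, LIF alone) and the lowest 131 (Nanog/Otx2, neither), and the highest 4 groups, all SunTag cells with LIF, overlapped each with the next. For Prdm1 every group overlapped with its neighbour in the order, from 623 (Nanog/Otx2, LIF alone) to 132 (Nanog/Otx2, neither).

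Per kilobase of exon, the 4 factors can be compared with each other. In Nanog SunTag cells with LIF alone the normalised counts per kilobase were 381 ± 85.5 for Tfap2c, 339 ± 39.5 for Prdm14, 97.0 ± 37.7 for Prdm1 and 14.9 ± 9.30 for Nanos3 (SD, n = 3). The means of Tfap2c and Prdm14 differed by less than the SD of Tfap2c. With neither LIF nor Dox they were 43.7 ± 15.1 for Tfap2c, 28.3 ± 1.97 for Prdm1, 16.8 ± 9.56 for Prdm14 and 3.67 ± 2.97 for Nanos3.

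Some groups with more Nanog had less Prdm14. SunTag libraries with Dox alone had 31697 to 55641 normalised counts of Nanog and 257 to 544 of Prdm14, while 44iN libraries with Dox and Tg2a libraries together had 13366 to 20261 of Nanog and 551 to 802 of Prdm14. In the other direction, 44iN libraries 24 h after removal of Dox had only 706 and 739 of Nanog and 252 and 284 of Prdm14, above all 7 SunTag libraries with neither, which had 1974 to 8484 of Nanog and 25.2 to 71.1 of Prdm14. These are values set side by side, with no test, and the groups differ in LIF.

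**Figure D4:**
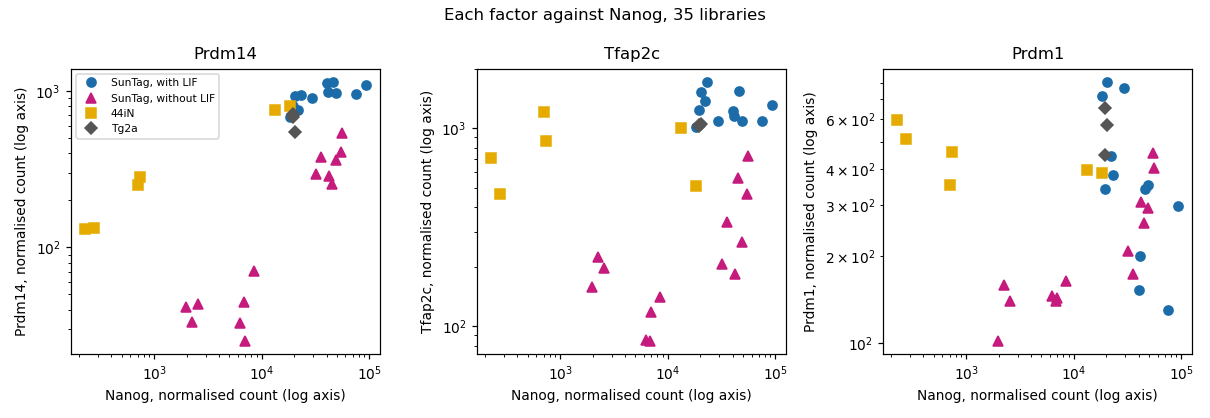
Normalised count of Prdm14, Tfap2c or Prdm1 (vertical, log axis) against that of Nanog (horizontal, log axis) in 35 libraries, marked as SunTag with LIF (circles), SunTag without LIF (triangles), 44iN (squares) and Tg2a (diamonds). SunTag libraries without LIF form a pair of clouds, with 25.2 to 71.1 counts of Prdm14 uninduced and 257 to 544 with Dox, below those with LIF at any level of Nanog.

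As a description over the 35 libraries, which share conditions and clones, the gene whose log2 level was most like that of Prdm14 was Esrrb, an orphan nuclear receptor of naive pluripotency (Pearson's r = 0.974, among the 11290 genes whose mean was no lower than 100 normalised counts), followed by Slc15a1 (0.949) and Myo1g (0.938). For Tfap2c the likest genes were Mobp (0.943), Klf4 (0.941), a reprogramming factor downstream of LIF, and Stmn2 (0.940). For Prdm1 they included Osbpl1a (0.878) and Trim13 (0.853). Prdm14 and Tfap2c correlated at 0.865, Prdm14 and Prdm1 at 0.562, and Prdm1 and Tfap2c at 0.638. With Nanog, Prdm14 correlated at 0.608, Tfap2c at 0.257, Prdm1 at 0.00 and Nanos3 at -0.05.

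Among the signals that induce germ cells, Bmp4 moved with Prdm14 and Tfap2c upon withdrawal of LIF and upon Dox without LIF. Most others rose upon withdrawal of LIF. Of 13 BMP and WNT ligands, receptors, SMADs and T tested in Nanog SunTag cells, 7 rose and 1 fell (median log2 fold change 1.26, against -0.05 over all genes, of which 20.2% were called higher and 21.3% lower). Wnt3, the WNT ligand of the early embryo, rose by 4.92 on the log2 scale (standard error 1.14), and Bmpr1b, a BMP receptor, rose by 2.94 (standard error 0.49). Wnt3 was under 10 normalised counts in every library with LIF alone. T passed the count filter only through the group with neither LIF nor Dox, where it was highest (24.6 to 41.5), which favours a rise. The count and the median above include both genes. Bmp4, the ligand that induces the germ line, fell by 2.52 (standard error 0.22). After Dox in the absence of LIF only Bmp4 of the 13 was called, and it rose by 1.43 (standard error 0.21, edgeR adjusted p = 0.00302). In Nanog/Otx2 cells Dox raised Bmp4 by 1.06 without LIF (edgeR adjusted p = 0.000715). With LIF it lowered Bmp4 by 0.85 (edgeR adjusted p = 0.00353), where Prdm14 rose by 0.41.

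Of 11 genes of nascent germ cells tested, 1 rose and 4 fell upon withdrawal of LIF (median -0.26), a share near the 41.5% of all genes called. Kit, a receptor of migrating germ cells, fell by 2.06 and Alpl, the alkaline phosphatase used to stain them, fell by 1.49, whereas Lin28a, an RNA-binding protein, rose by 1.00. Without LIF, Dox raised Kit by 1.11 (standard error 0.16, edgeR adjusted p = 0.00249), and none of the other 10 was called (4 of the 11 at an unadjusted p under 0.05, and 2 called by DESeq2). Of 10 genes of the later germ line, 1 rose (Tdrd1, by 2.00) and 5 fell, among them Hsf2bp by 2.32 and Tdrd9 by 1.78 (median -1.19, with 21.3% of all genes called lower). Of these 10 genes, Hsf2bp, a partner of the heat shock factor HSF2, was the only one called after Dox in the absence of LIF, and it rose by 1.53 (standard error 0.20, edgeR adjusted p = 0.00123).

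Among 6 genes known to rise when ES cells lose Prdm14, 4 rose and 1 fell upon withdrawal of LIF (median 1.10), where 41.5% of all genes were called. Dnmt3b and Dnmt3a, the de novo DNA methyltransferases, rose by 4.07 and 1.65, and Dnmt3l, their cofactor, fell by 1.01. Without LIF, Dnmt3b fell by 1.10 upon Dox (standard error 0.27, edgeR adjusted p = 0.0343) and the other 5 were not called (2 of the 6 at an unadjusted p under 0.05). DESeq2 called 1 as higher and 1 as lower. Of 5 proteins known to act with these factors, 2 rose and 1 fell upon withdrawal of LIF (41.5% of all genes called), namely Ehmt1, the H3K9 methyltransferase GLP (by 1.19), Wdr77, a cofactor of Prmt5 (by 0.46), and Cbfa2t2, the corepressor that binds Prdm14 (which fell by 0.54). After Dox in the absence of LIF edgeR called 0 of the 5, with 0 at an unadjusted p under 0.05 and 0 called by DESeq2.

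The factors' relatives in the PRDM, AP-2 and Nanos families went both ways. Of 19, 13 were tested, and 7 rose and 3 fell upon withdrawal of LIF (median 0.44, with 41.5% of all genes called). Mecom rose by 2.93, and Prdm16 fell by 1.65 and Nanos1 by 1.64. Prdm8, counted among the 7, passed the count filter only through the group with neither LIF nor Dox. Its rise was therefore favoured by the filter and is not given. Dox without LIF gave 0 calls by edgeR among the 13 (4 at an unadjusted p under 0.05, 0 by DESeq2). With LIF, Dox gave 0 calls by edgeR among the 13 inducing signals, 5 partners, 11 early and 10 late germ-cell genes, 6 genes repressed by Prdm14 and 13 relatives, with 1, 2, 2, 1, 1 and 4 at an unadjusted p under 0.05 and 0, 1, 2, 0, 0 and 1 called by DESeq2.

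In Nanog/Otx2 SunTag cells withdrawal of LIF called 24.6% of all genes as higher and 25.2% as lower. Of 11 inducing signals tested 7 rose and 1 fell, of 6 partners 2 rose and 1 fell, and of 13 relatives 2 rose and 4 fell. Of the 11 early germ-cell genes 3 rose and 5 fell, of the 10 late ones 2 rose and 3 fell, and of the 6 repressed by Prdm14 4 rose and 0 fell. Upon Dox without LIF the early genes had 2 higher and 2 lower, the late ones 2 higher and 0 lower, those repressed by Prdm14 1 higher and 2 lower, and the 12 pluripotency markers 10 higher and 0 lower, where 17.3% of all genes were called.

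**Figure D5:**
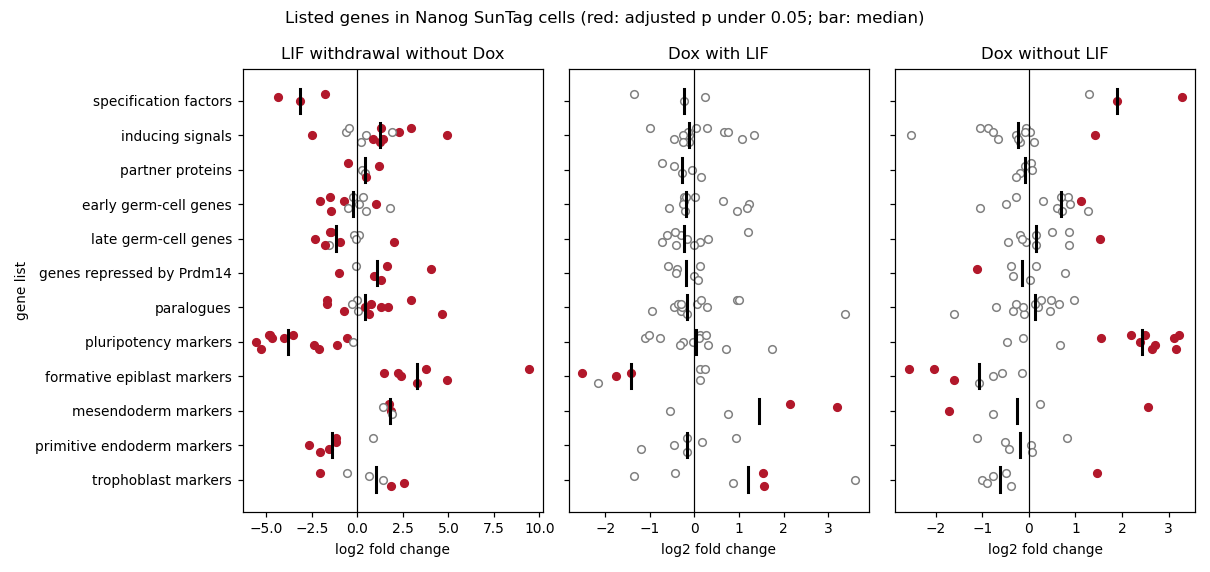
Log2 fold changes (horizontal) of the genes of each list (vertical) in Nanog SunTag cells for withdrawal of LIF, Dox with LIF and Dox without LIF, with red points for an adjusted p under 0.05 and a bar at each list's median. Upon Dox without LIF Prdm14, Tfap2c and the pluripotency markers (median 2.44) stand to the right, and the formative epiblast markers (median -1.08) to the left.

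Markers of cell state moved with the factors. Of 12 pluripotency markers, which include Nanog itself, 11 fell upon withdrawal of LIF (Klf4 by 5.56 and Tbx3 by 5.31 on the log2 scale) and 9 rose upon Dox without LIF (Esrrb by 3.23), where 21.3% of all genes were called lower and 3.60% higher. Their summed normalised counts were 135267 to 149088 with LIF alone, 184259 to 214835 with LIF and Dox, 40058 to 46030 with neither and 102643 to 114577 with Dox alone. These sums include Nanog, the induced gene, whose group means rose upon Dox from 24924 to 84519 with LIF and from 5916 to 51805 without. Much of the rise of the sums upon Dox was that of Nanog itself. All 7 formative epiblast markers, Otx2 included, rose upon withdrawal of LIF (Fgf5 by 9.43 and Pou3f1, listed under more than 1 identifier, by 4.89), and 3 fell upon Dox without LIF (Sox3 by 2.58 and Fgf5 by 2.03), against 20.2% of all genes called higher and 1.54% called lower. For the other marker lists the same shares apply upon withdrawal of LIF and upon Dox without LIF. The sums of the formative markers were 2295 to 3315, 925 to 1037, 15702 to 19516 and 8548 to 10032 in the same order. The part of these shifts in the levels of the 4 factors was not tested.

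Of 4 mesendoderm markers tested, Mixl1 and Eomes rose upon withdrawal of LIF, by 1.84 and 1.74, and upon Dox without LIF Evx1 rose by 2.56 and Mixl1 fell by 1.70. The list summed to at most 818 normalised counts in any Nanog SunTag library. Of 6 primitive endoderm markers, a cell type with Prdm1, 5 fell upon withdrawal of LIF, Gata6 by 2.66 and Sox17 by 2.04, and upon Dox edgeR called 0 with LIF (0 at an unadjusted p under 0.05, 0 by DESeq2) and 0 without (1 and 1). Their sums were 782 to 1768, 567 to 1776, 1586 to 1886 and 719 to 991 in Nanog SunTag cells in the order above. Although 5 of the markers fell, the sum with neither was thus not below that with LIF alone.

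In long-term 44iN and Tg2a cells the primitive endoderm sums were 8600 to 13124 and 6106 to 8618, against 204 to 1296 in the other 44iN libraries. Of 6 trophoblast markers, a cell type with Tfap2c, Krt18 and Krt8 rose by 2.54 and 1.85 and Tead4 fell by 2.05 upon withdrawal of LIF, and Tead4 rose by 1.47 upon Dox without LIF. Cdx2 and Elf5, which define trophoblast stem cells, did not reach the count needed for the test, and the list summed to 597 to 919, 1452 to 2007, 1695 to 2015 and 1219 to 1370.0. With LIF, Dox raised 2 of the 4 mesendoderm and 2 of the 6 trophoblast markers tested and lowered 3 of the 7 formative ones. That comparison called 0.563% of 15624 genes, 66 as higher and 22 as lower. The part of these cell types in the levels of Prdm1 and Tfap2c was not tested.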

How the data were processed

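RNA from mouse ES cells was sequenced, and per the labels and the study's methods the reads were assigned with STAR and RSEM to mm9 gene models. The authors deposited RSEM estimated counts per gene, rounded to whole numbers, and a second table in which those counts were divided by DESeq2 size factors over all 35 libraries (here unit signal, called normalised counts). Both were used as deposited, and groups were taken from the labels. Libraries in 2i medium were not analysed here.

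Genes entered a test if some condition of the model had 10 or more normalised counts in each of its libraries. Counts were fitted with edgeR 4.0.16 (TMM, quasi-likelihood, R 4.3.3). Within each SunTag line, LIF, Dox and their interaction were fitted together, 44iN and Tg2a cells were fitted apart, and p-values were adjusted by Benjamini-Hochberg over all genes tested. Standard errors were derived from the F statistic, and intervals are at 95%. Alternatives were DESeq2 1.42.0, its size factors within edgeR, other filters, fits of only the groups compared, a replicate block and leaving out each library. The scripts were tested on simulated data. The comparison of the 44iN and SunTag responses was added after the data were seen.

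The block was the clone in Nanog SunTag cells, where same-clone libraries deviated together (mean r = 0.15 over 22 pairs, -0.06 to 0.41, against -0.14 over 23 pairs of different clones), and clone and number in Nanog/Otx2 cells (mean r = 0.30 over 21 pairs, 0.13 to 0.55, against -0.10). Clones are cell lines, and with clone and number every pair in Nanog/Otx2 cells correlated above 0.1, so both were taken to pair the libraries in the block fits. The main fits, as in the study, held no block, and calls that the block changed are given beside them. For 1 Nanog/Otx2 library (C2ON3-1 with LIF alone) and 3 Nanog SunTag libraries the replicate number in the column name differs from that in the sample's title. Titles were followed, and the Nanog/Otx2 block was also fitted with the column's number and with the clone alone, both chosen after the data were seen. Nanos3 passed the filter through 1 group, and tests against that group are not given. Genes of the lists were not screened in this way, and counts per list can include genes such as Prdm8 and T. The members and lists were chosen with earlier results of these data known. Named beside the members are Nanog, Otx2, up to 2 called genes per list and direction with the largest change, and 3 genes of most like pattern for members with a mean of 10 or more, of which 1 is not reported here. Guide sequences came from the study's oligo list, gene and genome positions from mm9. Totals of 6107512 to 92244655 counts per library cover counting error only, and replicates differed beyond it.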

Additional observations from a re-analysis of the deposited data

Results flagged for a closer look

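Prdm1 in the Nanog/Otx2 SunTag library C2ON3-1 with neither LIF nor Dox, at 102 normalised counts, stood apart from the other 3 libraries of its group, at 139.8 to 145. Groups of 4 libraries were examined for such gaps, and chance sets a library apart in about 1 of 20 groups. The response to Dox differed between cells without and with LIF by a direct test, by 3.05 on the log2 scale for Prdm14, 2.65 for Prdm1 and 2.13 for Tfap2c in Nanog SunTag cells, and by 2.63 for Prdm14 and 2.21 for Prdm1 in Nanog/Otx2 SunTag cells.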

How the results depend on the processing

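Values are log2 fold changes. Of the comparisons of single factors, 798 values came from leaving out 1 library, and 735 of them kept the direction and the side of the threshold, 41 lost the call, 9 gained it and 13 changed sign. The falls upon withdrawal of LIF held under each alternative. DESeq2 gained 4 calls of 55, which were Prdm1 upon Dox in Nanog SunTag cells with LIF (-1.33) and without (1.28), Prdm14 in 44iN cells (1.62) and Prdm14 in the joint fit (0.20 in SunTag cells). No filter gained Prdm1 upon Dox without LIF in Nanog SunTag cells (1.32), Prdm14 in 44iN cells (1.65) and in the joint fit (0.24), and lost, in Nanog/Otx2 cells, Prdm14 upon Dox with LIF (0.42) and Prdm1 upon Dox without LIF (0.94). Fitting only the groups compared gained Prdm1 without LIF in Nanog SunTag cells (1.31) and lost Tfap2c without LIF in Nanog/Otx2 cells (0.96).

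The replicate block gained Prdm1 upon Dox with LIF (-1.48), without LIF (1.24) and with Dox alone against LIF alone (-0.70) in Nanog SunTag cells, the difference of the Tfap2c responses (1.02) in Nanog/Otx2 cells, and Prdm1 between the lines with Dox alone (-0.56). It turned the sign of the uncalled Tfap2c change with LIF in Nanog/Otx2 cells (-0.025). In these cells, the clone alone as the replicate block gave -0.035 for that change, 1.03 for the difference (again called) and 5831, 4690 and 2887 calls for Dox with LIF, without LIF and their difference, while numbering the replicate block as the columns do gave -0.066, 1.06 (again called) and 6519, 5398 and 3331. In 44iN cells the replicates share only a number, and the block there gave Prdm14 at 1.65 and 1912 calls, and Prdm14 at 0.24 in the joint fit, both called. The block changed no other call.

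Leaving out 1 library each gave these lowest and highest values, where a lone library left in a group was assumed to vary like the others. In Nanog SunTag cells they were 1.13 and 1.50 for Prdm1 upon Dox without LIF, -1.34 and -0.84 for Prdm14 with Dox alone against LIF alone, and, for the difference of the responses, 2.75 and 3.59 for Prdm14, 2.19 and 3.33 for Prdm1 and 1.95 and 2.44 for Tfap2c. In Nanog/Otx2 cells with LIF, Dox gave 0.30 and 0.53 for Prdm14, -1.53 and -1.05 for Prdm1 and -0.12 and 0.19 for Tfap2c. Without LIF it gave 0.81 and 1.07 for Prdm1 and 0.78 and 1.22 for Tfap2c, and the difference was 0.76 and 1.21 for Tfap2c. In 44iN cells the values were 1.55 and 1.77 for Prdm14, -0.13 and 0.30 for Prdm1 and -0.92 and 0.0052 for Tfap2c. Long-term 44iN against Tg2a cells gave -2.47 and -2.31 for Prdm14, -0.25 and 0.015 for Prdm1 and -1.28 and -0.66 for Tfap2c. Between the lines with Dox alone they were -0.58 and -0.079 for Prdm14 and -1.42 and 0.60 for Nanos3, with neither -0.36 and 0.47 for Prdm14, and for the difference of the lines' responses -0.77 and 0.018 for Prdm14. The difference between 44iN and SunTag responses was -0.71 and 0.23 for Tfap2c. The cause of these changes was not tested.

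Counts of genes called moved by more than 1.5 times as follows. For Dox with LIF in Nanog SunTag cells, 88 became 587 (DESeq2), 151 (no filter), 293 (block), 0 (only the groups compared) and 3 to 142 (1 library left out). For Dox without LIF, 803 became 1509, 1375 with the block, 1951 with only the groups compared and 277 to 1617. For the difference, 302 became 877, 709 with the block and 81 to 481, and for Dox alone against LIF alone 4386 became 2648 to 6744. In Nanog/Otx2 cells 3577, 2702 and 1514 became 6401, 5215 and 3407 with the block and 1962 to 4036, 1756 to 3007 and 870 to 1847. In 44iN cells 0 became 141, 434 with no filter and 61 to 3413. The joint fit had 48, then 410, 615 with no filter, 153 with the block and 3 to 60. Long-term 44iN against Tg2a cells had 1286, then 2294 and 19 to 2618. Between the lines 4123 without Dox became 2306 to 5299, and 5 for the responses became 41, 8 with the block and 0 to 8. For 44iN against SunTag responses 0 became 15, 111 with no filter and 2 with the block. With 0 to 52 counts per library, Nanos3 is limited by depth.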
